A study of Homo sapiens with 12 samples.

Results

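The 41 genes described here are secreted inflammatory messengers (chemokines, interleukins and colony-stimulating factors), the NF-kB proteins that control many of them, and further genes that NF-kB induces. They were chosen by gene symbol, and expected counts and FPKM (fragments scaled to transcript length and library size) were summed over all Ensembl transcripts of each symbol. Of 19647 genes summed in this way, 11908 had 1 FPKM or above in no fewer than 3 of 12 libraries and were tested. Of the 41 genes, 32 passed that filter and 9 did not.

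The cells were A549, a human lung adenocarcinoma line. The series holds 4 groups of 3 libraries: NR0B1 overexpression, its control (labelled OEC), a short hairpin knockdown of NR0B1 (shNR0B1), and its control (shNC). The labels name no further treatment, no promoter or vector, and no clone, hairpin sequence or time. NR0B1 (DAX1) belongs to the orphan nuclear receptors and mostly represses the factors it binds. Nothing in the labels says that the 3 libraries of a group came from separate cultures, so p-values measure the spread between these samples, which may be technical.

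NF-kB is a family of dimeric transcription factors held in the cytoplasm by inhibitors such as IkB-alpha, the product of NFKBIA. Signals from cytokine and innate receptors destroy the inhibitor, and the dimer then enters the nucleus and binds kappaB sites near chemokine, cytokine and survival genes. Several of its targets (NFKBIA, TNFAIP3, NFKB2, RELB) act back on the pathway, and lung epithelial cells use it to call neutrophils and monocytes to the airway.

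A group of 6 chemokines lies in a cluster of 359 kb on chromosome 4 (GRCh38, GENCODE 29), from CXCL8 at its start (chr4:73740506-73743716, plus strand) to CXCL2 at its end (chr4:74097035-74099293, minus strand). They are the ELR chemokines, which attract neutrophils through the receptor CXCR2. The promoter windows of the 5 measured ones are printed because all 5 fell in the knockdown once the libraries described below were left out, while none passed with all 12, and that of IL11 because it rose with overexpression. Each window runs from 250 bases before to 50 bases after the start in RefSeq (GRCh38.p14), 5′ to 3′ on the gene's strand. Capitals mark the kappaB motif GGANTTTCC and the AP-1 motif TGANTCA, both searched on both strands.
CXCL8 (chr4:73740319-73740618, plus): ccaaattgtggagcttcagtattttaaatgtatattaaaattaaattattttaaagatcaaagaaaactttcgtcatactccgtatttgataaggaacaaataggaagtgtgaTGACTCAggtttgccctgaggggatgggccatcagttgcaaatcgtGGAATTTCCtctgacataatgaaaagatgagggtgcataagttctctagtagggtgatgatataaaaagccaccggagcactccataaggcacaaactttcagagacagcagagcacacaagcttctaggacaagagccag
CXCL1 (chr4:73869143-73869442, plus): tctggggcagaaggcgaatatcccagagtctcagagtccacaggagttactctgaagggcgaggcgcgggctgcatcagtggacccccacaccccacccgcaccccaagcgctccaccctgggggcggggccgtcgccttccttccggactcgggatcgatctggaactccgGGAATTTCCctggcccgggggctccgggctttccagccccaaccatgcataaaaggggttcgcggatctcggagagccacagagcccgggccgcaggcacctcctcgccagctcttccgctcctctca
CXCL5 (chr4:73998628-73998927, minus): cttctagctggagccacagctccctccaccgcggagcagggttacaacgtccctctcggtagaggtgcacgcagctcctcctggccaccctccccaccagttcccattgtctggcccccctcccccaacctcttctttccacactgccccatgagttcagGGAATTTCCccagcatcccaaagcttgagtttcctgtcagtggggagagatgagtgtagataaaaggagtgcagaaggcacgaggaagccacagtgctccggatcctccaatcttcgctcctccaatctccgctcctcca
CXCL3 (chr4:74038640-74038939, minus): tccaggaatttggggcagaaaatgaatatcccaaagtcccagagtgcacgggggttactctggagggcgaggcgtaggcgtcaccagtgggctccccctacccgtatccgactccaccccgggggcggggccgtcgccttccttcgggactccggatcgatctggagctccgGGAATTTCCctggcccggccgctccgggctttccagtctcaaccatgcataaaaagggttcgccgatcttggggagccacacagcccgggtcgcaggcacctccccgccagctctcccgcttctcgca
CXCL2 (chr4:74099146-74099445, minus): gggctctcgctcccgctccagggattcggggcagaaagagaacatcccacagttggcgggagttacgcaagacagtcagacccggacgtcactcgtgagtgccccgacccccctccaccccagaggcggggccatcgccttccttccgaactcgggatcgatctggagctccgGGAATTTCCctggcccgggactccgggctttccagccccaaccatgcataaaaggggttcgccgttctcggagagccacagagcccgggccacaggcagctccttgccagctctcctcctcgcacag
IL11 (chr19:55370414-55370713, minus): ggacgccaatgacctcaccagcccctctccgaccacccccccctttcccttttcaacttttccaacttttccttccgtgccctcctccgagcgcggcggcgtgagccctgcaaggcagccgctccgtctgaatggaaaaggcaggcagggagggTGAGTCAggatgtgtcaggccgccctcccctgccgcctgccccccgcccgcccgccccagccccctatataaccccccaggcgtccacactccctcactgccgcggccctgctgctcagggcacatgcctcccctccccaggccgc
All 5 ELR windows hold a kappaB match, starting between 77 and 91 bases before the transcription start, and CXCL8 holds an AP-1 match as well. CXCL1 and CXCL2 share an unbroken run of 42 bases, and CXCL2 and CXCL3 a run of 37 bases that contains the kappaB match. Of the 31 members in the RefSeq table, 15 had a kappaB match, against 1.64% of 27305 promoter windows. The list was chosen to hold genes that NF-kB induces, and some windows share sequence, so this count describes the list only. AP-1 letters were found in 7 of the 31, against 7.76% of all windows. A match describes these letters and is not evidence of binding.

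Libraries held between 15049011 and 22797076 expected counts. A549 and epithelial markers were high as a sum in every library. The 7 markers summed to 3620 FPKM in knockdown replicate 2, the lowest value, and to between 5580 and 7210 in the others. All 7 reached 1 FPKM in every knockdown library, but only 6 did so in all 3 libraries of each other group. Leukocyte markers were low. The 7 macrophage and monocyte markers summed to between 0.43 and 1.78 FPKM and the 7 lymphocyte markers to at most 0.73. The T cell markers CD3D, CD3E and CD2 were listed at 0 in all 12 libraries. The targeted gene NR0B1 had 40.2, 33.4 and 35.2 FPKM with overexpression, against 6.99, 24.6 and 22.02 in its controls. That difference did not pass the test (log2 fold change 0.99 ± 0.38 SE, adjusted p = 0.0912 by edgeR). In the knockdown NR0B1 had 1.28, 1.36 and 2.45 FPKM, against 7.0, 9.01 and 5.47 in its controls, a log2 fold change of -2.06 ± 0.42 (adjusted p = 0.00593 by edgeR).

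A pair of libraries stood apart from their groups in these genes. Knockdown replicate 2 had the highest of the 3 knockdown values for 30 of the 32 tested members (93.8%), against 42.1% of all genes tested. It lay 2-fold or more above the mean of the other knockdown libraries for 23 members (71.9%), against 3.85% of all genes. The excess was 78.9-fold for CCL20, 34.1-fold for CCL5, 23.2-fold for ICAM1, 12.5-fold for PTGS2 and 11.6-fold for CXCL8; IL18 and CCL26 were the exceptions, at 0.766 and 0.519 times the mean of the others. Overexpression control replicate 1 was highest of its group for 21 members (65.6%), against 38.6% of all genes, with CXCL1 at 5.96, IL11 at 3.68 and CXCL8 at 3.00 times the mean of the other controls. It was lowest of its group for 8 members (25.0%), against 45.5% of all genes, with CSF2 at 0.241, CCL5 at 0.49 and ICAM1 at 0.639 times that mean. NR0B1 was low in that same control library. Overexpression replicate 1 was highest of its own group for 20 members (62.5%), against 35.0% of all genes. For 0 members it lay 2-fold or more above the mean of the others, against 11 (34.4%) for control replicate 1. It was kept when the pair was left out, and leaving it out together with that control was not tested.

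Interferon response genes moved with both of these libraries. MX1, an antiviral GTPase, had 1.67, 197 and 0.91 FPKM in knockdown replicates 1 to 3, against 0.60, 0.90 and 0.87 in knockdown controls. ISG15, a ubiquitin-like protein, had 8.67, 481 and 5.13 FPKM there, against 4.30, 3.39 and 4.12. Summed over 26 interferon response genes, knockdown replicate 2 held 4700 FPKM, while replicates 1 and 3 held 438 and 409 and the knockdown controls 445 to 471. With all libraries 10 of the 26 were called higher in the knockdown (38.5%, against 23.9% of all genes called), with a median log2 fold change of 2.60. Without both libraries 2 were higher and 4 lower (23.1%, against 37.7% of all genes). The overexpression arm was high throughout, with 4750, 3030 and 3420 FPKM with overexpression, against 4530, 2680 and 2610 in its controls. Replicate 1 was thus the highest library of each group in that arm. With overexpression 0 interferon genes were called higher and 1 lower with all libraries (3.85%, against 18.1% of all genes). Without both, 14 were higher and 2 lower, 61.5% of the list against 37.5% of all genes. The part of the interferon genes in the results below was not tested. Results are therefore given with all libraries and with both libraries left out; the pair was set aside with its levels of these genes known, so tests without it describe the remaining 10 libraries.

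**Figure D1:**
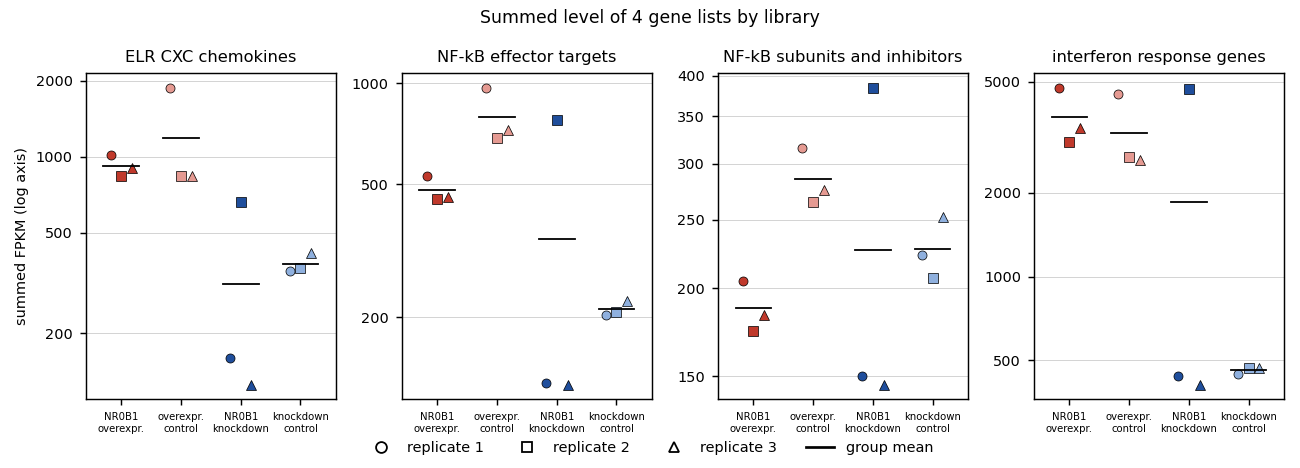
Summed FPKM (log axis, own scale in each panel) of 4 gene lists in each library, by group, with group means as lines. Knockdown replicate 2 (dark blue square) lies above both other knockdown libraries in each panel, and its interferon sum of 4700 FPKM lies among the overexpression-arm libraries.

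**Figure D2:**
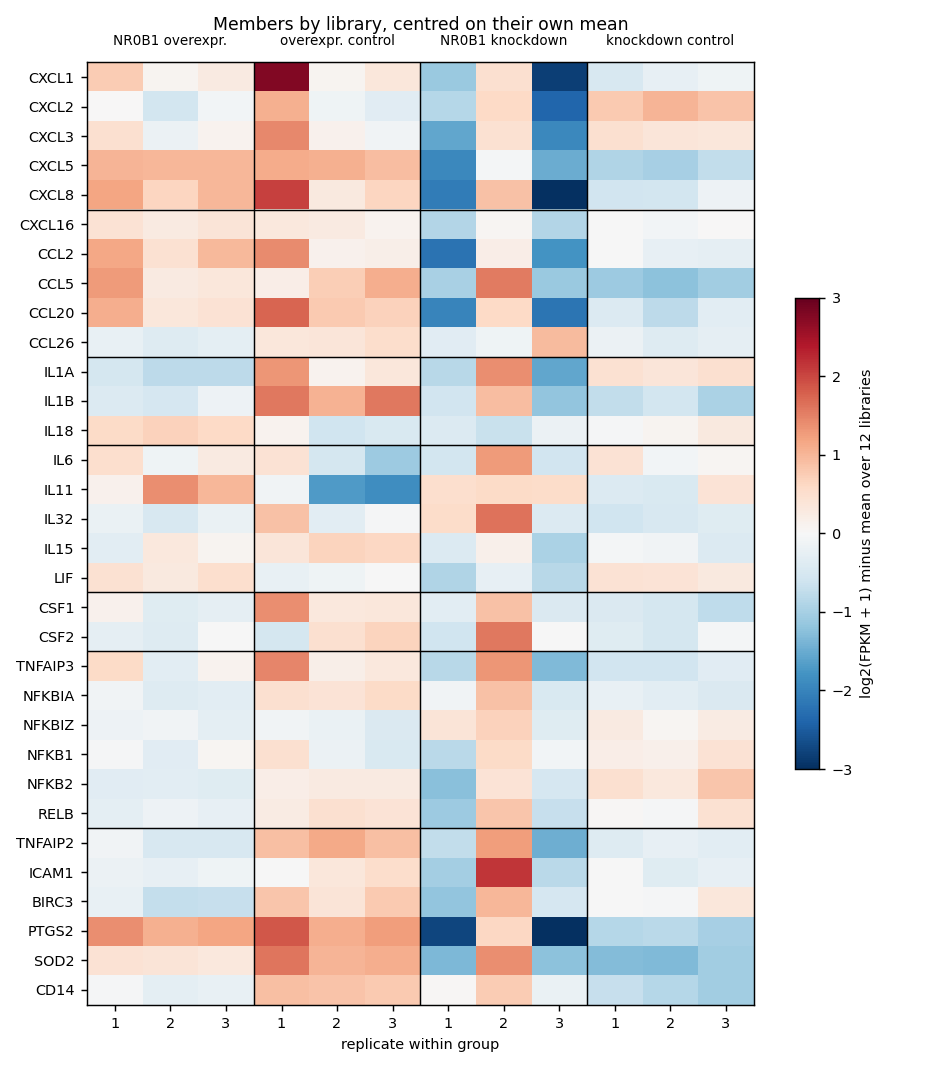
Each of the 32 tested members (rows, grouped by role) in the 12 libraries (columns), as log2(FPKM + 1) minus the member's mean over all libraries; red is above and blue below that mean. Knockdown replicates 1 and 3 are mostly blue and replicate 2 is mostly red, and the overexpression control column 1 stands out for CXCL1 and CXCL8.

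Few members passed with all 12 libraries. With overexpression, 4 of 32 were called at an adjusted p below 0.05 (12.5%), against 18.1% of all genes tested (9.87% higher, 8.2% lower): IL11 and IL18 rose, and IL1B and CD14 fell. In the knockdown 4 were called, against 23.9% of all genes (12.4% higher, 11.5% lower): CD14, CCL5 and IL32 rose and LIF fell. In bulk RNA, fewer cells expressing a gene and less RNA per cell cannot be told apart. Without both libraries the counts were 15 with overexpression (4 higher, 11 lower), where 37.5% of all genes were called (19.9% higher, 17.6% lower), and 21 in the knockdown (2 higher, 19 lower), where 37.7% were called (19.0% higher, 18.7% lower). The median log2 fold change of the tested members was then -0.09 with overexpression and -0.76 in the knockdown, beside -0.01 and 0.01 over all genes. Knockdown replicate 2 was highest of its group for 30 of the 32 members, so its removal by itself lowers most knockdown values. Leaving out knockdown replicate 2 alone gave 12 with overexpression (27.7% of all genes) and 16 in the knockdown (28.8%), and leaving out overexpression control replicate 1 alone gave 3 (25.3%) and 5 (28.6%). CCL5, CD14, IL1A, IL1B, CSF2 and CCL26 reached 1 FPKM in 6 to 9 of the 12 libraries, so they passed the filter through the groups where they were high, and the counts over tested members are a description.

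Among the ELR chemokines CXCL5, CXCL1 and CXCL8 were abundant, CXCL2 and CXCL3 intermediate and CXCL6 the lowest of all members; the 5 tested ones were low in 2 of 3 knockdown libraries. CXCL5 had the highest mean of all members, 337 FPKM over the 12 libraries, followed among chemokines by CXCL1 at 163 and CXCL8 at 153. CXCL8, interleukin-8, had 24.0, 196 and 9.90 FPKM in the knockdown, against 71.8, 72.9 and 95.3 in its controls. Knockdown replicates 1 and 3 lay below every control and replicate 2 above every control. Its log2 fold change was -0.06 ± 0.85 (adjusted p = 0.965 by edgeR) with all libraries and -2.20 ± 0.34 (adjusted p = 0.00125) without both.
CXCL3 had 5.18, 23.7 and 3.76 FPKM in the knockdown, against 24.1, 22.1 and 21.9 in its controls. CXCL2 had 10.8, 31.4 and 3.08 FPKM, against 35.8, 42.1 and 37.7, with all 3 knockdown values below the controls. Neither was called with all libraries (log2 fold changes -1.04 ± 0.61 and -1.33 ± 0.63, adjusted p = 0.238 and 0.147 by edgeR). Without both libraries CXCL3 fell by 2.30 ± 0.23 (adjusted p = 0.000105) and CXCL2 by 2.42 ± 0.43 (adjusted p = 0.00244). Assembled transcripts that were not summed hold 30.9% to 69.9% of the CXCL2 counts. Their CXCL2 row had 723.6, 424.9 and 109.9 counts in the knockdown, against 515.8, 457.4 and 502.6 in its controls. With it added the value over all libraries was -0.88 ± 0.53 (adjusted p = 0.233 by edgeR), and the fit without both libraries was not repeated with it. Up to 8.99% of the 50-base words of CXCL2 also occur in CXCL3, so reads of these paralogs could be split between them.

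CXCL1 had 50.6, 155 and 14.8 FPKM in the knockdown, against 79.9, 93.5 and 101 in its controls. It passed in the knockdown without both libraries (-1.44 ± 0.43, adjusted p = 0.0293 by edgeR); with knockdown replicate 2 alone left out the adjusted p was 0.192. CXCL5 had 68.6, 252 and 93.03 FPKM, against 139, 132 and 158, with a log2 fold change of -0.03 ± 0.36 (adjusted p = 0.967). Without both libraries it fell by 0.78 ± 0.13 (adjusted p = 0.00154).

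With NR0B1 overexpression none of the 5 tested ELR chemokines was called by edgeR, either with all libraries or without both; with all libraries 0 of 5 had an unadjusted p below 0.05 and DESeq2 called 0. CXCL5 had 538, 522 and 521 FPKM with overexpression, against 568.5, 549.46 and 500.99 in its controls, and the groups overlapped. CXCL1 had 190, 118 and 133 FPKM, against 768, 118 and 140; its log2 fold change was -1.25 ± 0.82 with all libraries and 0.19 ± 0.41 without both. CXCL8 had 244, 168 and 212 FPKM, against 444, 130 and 166, with -0.28 ± 0.85 and 0.49 ± 0.31 in the same settings. For CXCL1 to CXCL3 and CXCL8 the value was negative with control replicate 1 and positive without it.

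**Figure D3:**
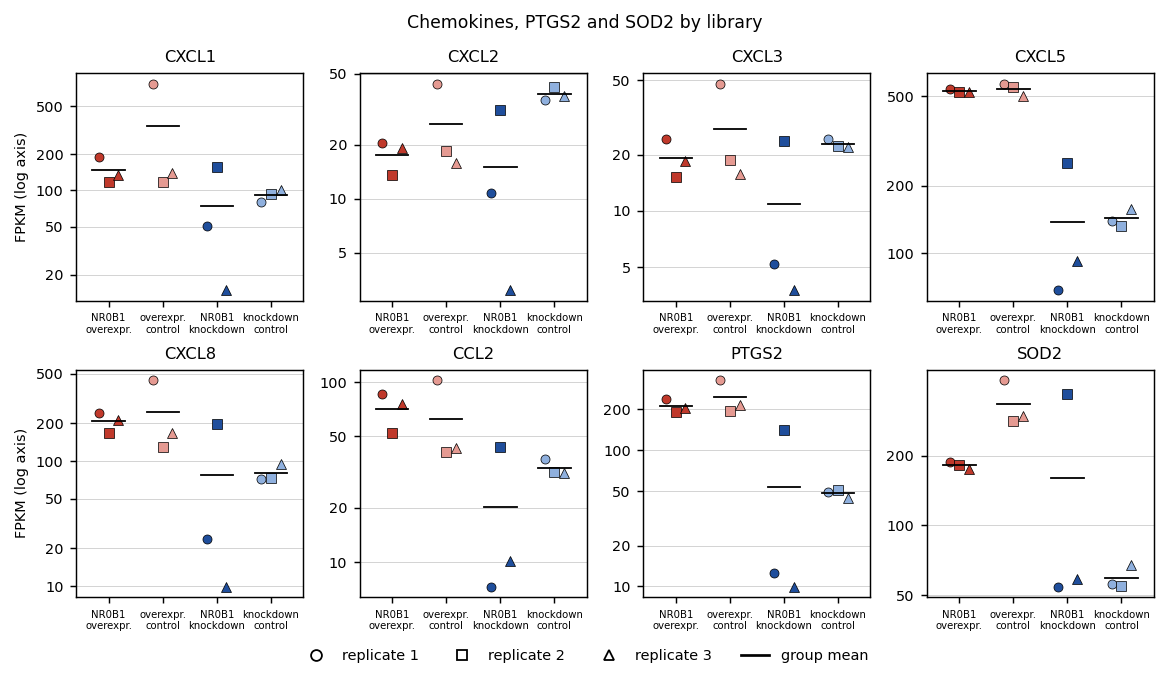
FPKM (log axis, own scale in each panel) of CXCL1, CXCL2, CXCL3, CXCL5, CXCL8, CCL2, PTGS2 and SOD2 in each library, by group, with symbols for the replicates and lines for group means. In the knockdown CXCL8 had 24.0 and 9.90 FPKM in replicates 1 and 3 and 196 in replicate 2, while its controls lay between 71.8 and 95.3.

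Among the other chemokines, CCL2 and CCL20 followed the ELR genes in the knockdown. CCL2, which attracts monocytes, had 7.29, 43.6 and 10.2 FPKM, against 37.5, 31.6 and 31.4 in knockdown controls. Its log2 fold change was -0.70 ± 0.58 (adjusted p = 0.407 by edgeR) with all libraries and -1.90 ± 0.23 (adjusted p = 0.000322) without both. With overexpression CCL2 had 86.3, 52.5 and 75.5 FPKM, against 103, 41.1 and 43.0 in controls, and it rose by 0.77 ± 0.21 without both libraries (adjusted p = 0.0191) but not with all (0.17 ± 0.57, adjusted p = 0.861).
CCL20, the ligand of CCR6, had 0.15, 5.92 and 0.00 FPKM in the knockdown, against 2.44, 1.63 and 2.68 in its controls, and fell by 4.58 ± 0.69 without both libraries (adjusted p = 0.000886). With all libraries its log2 fold change was -0.14 ± 1.09 (adjusted p = 0.938). CXCL16, a membrane-bound chemokine, had 2.46, 5.68 and 2.48 FPKM, against 5.36, 5.07 and 5.45, and fell by 1.04 ± 0.14 without both (adjusted p = 0.000547). With all libraries its adjusted p was 0.179. Exons of CXCL16 overlap those of MED11 on the opposite strand, and the sources used here do not say whether counting used strand.

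CCL5, which attracts T cells and monocytes, was called higher in the knockdown with a log2 fold change of 4.18 ± 1.35 (adjusted p = 0.0444 by edgeR). The values were 0.24, 6.14 and 0.12 FPKM, against 0.15, 0.04 and 0.18 in controls. The rise rested on replicate 2: without that library the log2 fold change was 0.54 ± 0.81 (adjusted p = 0.653). The call also ended without any 1 of 8 further libraries, where the adjusted p lay between 0.0534 and 0.129. CCL26, an eosinophil chemokine, had 0.97, 0.74 and 0.85 FPKM with overexpression, against 1.89, 1.95 and 2.30 in controls, which did not overlap and did not pass (-1.28 ± 0.54, adjusted p = 0.117).

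With all 12 libraries IL11 and IL18 were the members called higher with overexpression, and without both libraries CCL2 and IL6 were called higher as well. IL11, a cytokine of the IL-6 family, had 18.9, 46.8 and 35.0 FPKM with overexpression, against 15.8, 4.58 and 3.98 in its controls. It rose by 2.08 ± 0.50 on the log2 scale (4.24-fold, adjusted p = 0.0176 by edgeR) and by 2.96 ± 0.42 without both libraries (adjusted p = 0.00112). The call ended when overexpression replicate 2 or 3, or control replicate 2 or 3, was left out (adjusted p between 0.0542 and 0.0677). In the knockdown IL11 had 24.5, 25.8 and 25.4 FPKM, against 12.6, 12.3 and 23.1, with no overlap and no call (0.78 ± 0.48, adjusted p = 0.255).

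IL18, an IL-1 family cytokine that is activated by inflammasomes, had 118, 128 and 120 FPKM with overexpression, against 85.1, 51.4 and 56.9 in its controls. All overexpression values lay above all control values. It rose by 0.91 ± 0.20 (1.88-fold, adjusted p = 0.0124 by edgeR); without control replicate 3 the adjusted p was 0.0545. In the knockdown IL18 had 58.9, 49.1 and 69.4 FPKM, against 77.5, 83.5 and 96.9, again without overlap. That difference was -0.49 ± 0.20 (adjusted p = 0.0944), and it passed without both libraries (-0.37 ± 0.12, adjusted p = 0.0316) and without overexpression control replicate 1 (adjusted p = 0.0237). IL18 was the only tested member for which knockdown replicate 2 held the lowest of the 3 knockdown values.

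The other IL-1 family members fell with overexpression or did not pass. IL1B, the secreted IL-1 cytokine, had 1.01, 0.89 and 1.40 FPKM with overexpression, against 6.99, 4.55 and 7.05 in its controls. It fell by 2.51 ± 0.78 (5.71-fold lower, adjusted p = 0.0451 by edgeR) and by 2.40 ± 0.49 without both libraries (adjusted p = 0.00487). The call with all libraries ended when any 1 of 9 libraries was left out, among them all 6 of that arm (adjusted p between 0.0596 and 0.131). IL1A, which signals through the same receptor, had 1.34, 0.94 and 0.93 FPKM, against 7.39, 2.62 and 3.21, and did not pass with all libraries (adjusted p = 0.157). It fell without knockdown replicate 2 (-2.05 ± 0.54, adjusted p = 0.021) and without both (-1.44 ± 0.49, adjusted p = 0.0434).
In the knockdown IL1A had 0.89, 7.84 and 0.14 FPKM, against 3.57, 3.33 and 3.68 in its controls. It fell by 2.70 ± 0.56 without both libraries (adjusted p = 0.00462) and had -0.24 ± 0.92 with all (adjusted p = 0.873).

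LIF, a cytokine of the IL-6 family, gave the fall in the knockdown that depended least on single libraries. It had 27.7, 44.1 and 29.3 FPKM in the knockdown, against 71.0, 70.8 and 64.3 in its controls. The groups did not overlap, and LIF fell by 0.98 ± 0.21 (1.97-fold lower, adjusted p = 0.00756 by edgeR). It stayed called in all 22 alternatives, with adjusted p at most 0.0449. With overexpression LIF had 72.1, 64.3 and 74.8 FPKM, against 44.9, 48.0 and 52.1, without overlap and without a call (0.46 ± 0.21, adjusted p = 0.14). Assembled transcripts hold 53.2% to 69.1% of the LIF counts; with them added the knockdown value was -1.15 ± 0.19 (adjusted p = 0.0014).

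IL6 had 8.19, 4.86 and 6.77 FPKM with overexpression, against 7.63, 3.45 and 2.02 in its controls. Knockdown cells had 3.41, 14.5 and 3.29 FPKM, against 7.67, 5.12 and 5.66. IL6 was not called with all libraries (0.58 ± 0.63 and 0.03 ± 0.62, adjusted p = 0.552 and 0.979 by edgeR). Without both libraries it rose with overexpression (1.29 ± 0.26, adjusted p = 0.0043) and fell in the knockdown (-1.25 ± 0.26, adjusted p = 0.00435); with knockdown replicate 2 alone left out neither passed. Exons of IL6 overlap those of STEAP1B on the opposite strand.
IL32, a cytokine that induces other inflammatory cytokines, had 28.6, 61.5 and 14.2 FPKM in the knockdown, against 12.3, 13.4 and 14.6 in its controls. It was called with all libraries (1.34 ± 0.45, adjusted p = 0.0496), but replicate 3 lay within the controls and the call ended without knockdown replicate 2 (0.66 ± 0.36, adjusted p = 0.19) or any 1 of 9 other libraries (adjusted p up to 0.135). Without both libraries it passed again, at a smaller size (0.67 ± 0.24, adjusted p = 0.0487). IL15, a growth factor of lymphocytes, was not called by edgeR in either arm with all libraries or without both.

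**Figure D4:**
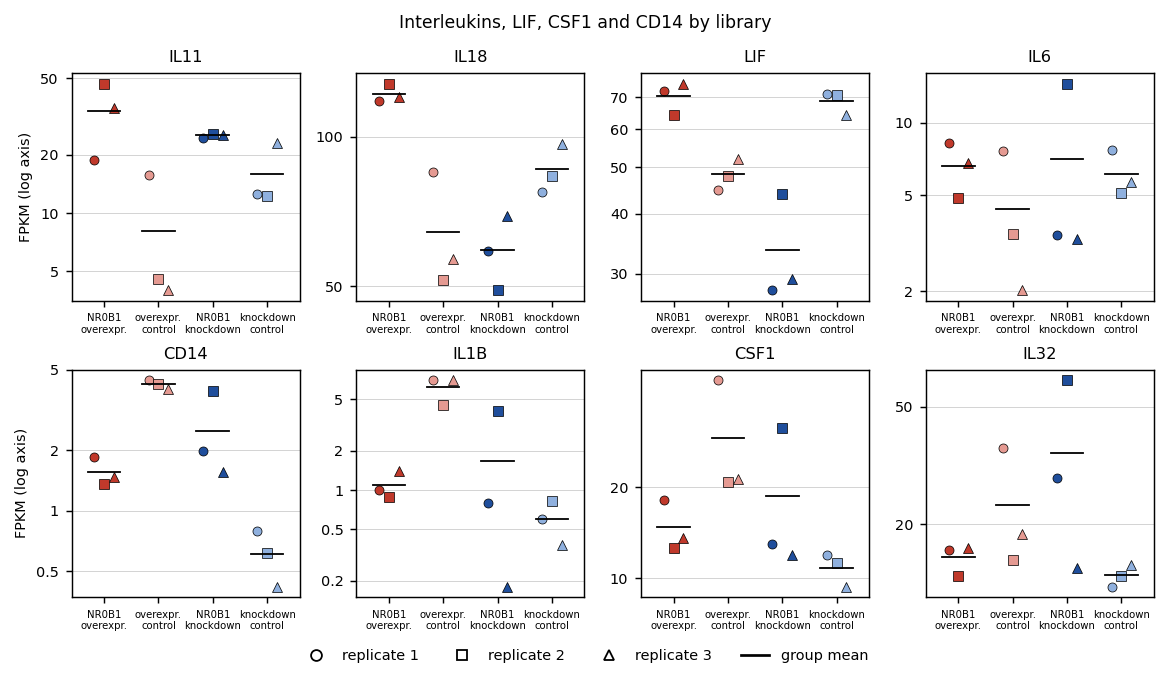
FPKM (log axis, own scale in each panel) of IL11, IL18, LIF, IL6, CD14, IL1B, CSF1 and IL32 in each library, by group, with symbols for the replicates and lines for group means. IL18 lies between 118 and 128 FPKM with overexpression, above its controls, and LIF lies between 27.7 and 44.1 FPKM in the knockdown, below its controls.

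The colony-stimulating factors, which drive myeloid cells, were low to moderate. CSF1 had 18.1, 12.6 and 13.6 FPKM with overexpression, against 45.1, 20.8 and 21.2 in its controls. The groups did not overlap, and CSF1 fell without both libraries (-0.57 ± 0.14, adjusted p = 0.01 by edgeR) but did not pass with all (-1.01 ± 0.36, adjusted p = 0.0749). In the knockdown CSF1 had 13.0, 31.2 and 11.9 FPKM, against 11.9, 11.2 and 9.38, and did not pass in either setting (adjusted p = 0.163 and 0.334). Assembled transcripts hold 40.3% to 77.3% of its counts. With them added the CSF1 values over all libraries were -0.46 ± 0.18 with overexpression and 0.49 ± 0.18 in the knockdown (adjusted p = 0.0755 and 0.0534 by edgeR). CSF2 had 0.87, 0.71 and 1.21 FPKM with overexpression, against 0.57, 2.15 and 2.58, with no call from all libraries (adjusted p = 0.445) and a fall without both (-1.35 ± 0.48, adjusted p = 0.0491).

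NF-kB subunits and inhibitors were expressed in every library, and none of the 6 was called with all libraries in either arm by edgeR; DESeq2 called 1 in each arm, and 1 in each had an unadjusted p below 0.05 by edgeR (NFKBIA with overexpression, NFKB2 in the knockdown). With assembled transcripts added, edgeR called NFKBIA lower with overexpression (-0.77 ± 0.26, adjusted p = 0.0475). NFKBIA, whose product is the inhibitor IkB-alpha, had 74.5, 61.7 and 64.9 FPKM with overexpression, against 114, 107 and 120 in its controls. Its overexpression value was -0.78 ± 0.27 with an adjusted p of 0.0631, and without both libraries it fell by 0.76 ± 0.13 (adjusted p = 0.00168). In the knockdown it had 75.2, 150 and 58.4 FPKM, against 69.0, 65.1 and 60.0, and the log2 fold change was 0.58 ± 0.26 with all libraries and 0.09 ± 0.13 without both.
RELB, the activating subunit of the non-canonical branch, had 22.6, 25.1 and 23.5 FPKM with overexpression, against 33.2, 39.4 and 37.6 in controls. In the knockdown it had 12.5, 50.3 and 16.9 FPKM, against 28.5, 27.3 and 38.8. Without both libraries RELB fell in both arms, by 0.70 ± 0.17 (adjusted p = 0.0107) and by 1.07 ± 0.18 (adjusted p = 0.00151). NFKB2, its partner's precursor, had 22.4, 73.5 and 38.1 FPKM in the knockdown, against 76.1, 68.5 and 98.8, and fell by 1.37 ± 0.22 without both (adjusted p = 0.00153). NFKB1 also fell there (-0.68 ± 0.23, adjusted p = 0.041), with 26.1% to 40.7% of its counts in assembled transcripts.
TNFAIP3, the deubiquitinase A20 that restrains the pathway, had 40.2, 21.0 and 28.3 FPKM with overexpression, against 74.3, 29.9 and 33.2, and 14.5, 67.5 and 9.96 FPKM in the knockdown, against 17.5, 17.5 and 20.8. TNFAIP3 and NFKBIZ, an atypical nuclear inhibitor, were not called by edgeR in either arm with all libraries or without both.

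The effector targets of NF-kB included the member with opposite calls in the arms. CD14, the co-receptor for lipopolysaccharide, had 1.84, 1.36 and 1.48 FPKM with overexpression, against 4.46, 4.26 and 4.0 in its controls, and fell by 1.42 ± 0.35 (2.68-fold lower, adjusted p = 0.02 by edgeR). In the knockdown it had 1.99, 3.93 and 1.55 FPKM, against 0.79, 0.62 and 0.42, and rose by 2.04 ± 0.37 (4.11-fold, adjusted p = 0.00325). No values overlapped in either arm. The knockdown call held in all 22 alternatives, while the overexpression call ended without overexpression replicate 2 or 3 or control replicate 2 or 3 (adjusted p between 0.0548 and 0.074). The 7 macrophage and monocyte markers summed to 0.43 to 0.71 FPKM with overexpression, against 1.20 to 1.78 in its controls, and to 1.0 to 1.74 FPKM in the knockdown, against 0.92 to 1.08. In overexpression replicates 2 and 3 ITGAM was the only marker of the 7 above 0, and 1 marker reached 1 FPKM in all 3 overexpression controls. PTPRC, the marker shared by leukocytes, was listed at 0 in every library except knockdown replicate 1, where it was above 0 and below 1 FPKM. The part of these markers in the CD14 values was not tested.

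SOD2, the mitochondrial superoxide dismutase, had 188, 183 and 175 FPKM with overexpression, against 426, 282 and 298 in its controls. It did not pass with all libraries (-1.17 ± 0.48, adjusted p = 0.108 by edgeR) and fell by 1.19 ± 0.14 without both (adjusted p = 0.000407). Knockdown cells had 54.3, 370 and 58.7 FPKM, against 55.9, 54.7 and 67.2, and without both libraries the difference was 0.08 ± 0.14. SOD2 overlaps WTAP on the opposite strand, its symbol covers 2 gene identifiers, and assembled transcripts hold up to 51.4% of its counts. With those transcripts added the overexpression value over all libraries was -0.88 ± 0.62 (adjusted p = 0.325 by edgeR).
PTGS2, the inducible cyclooxygenase, had 12.6, 140 and 9.96 FPKM in the knockdown, against 49.7, 51.5 and 44.8 in its controls. Without both libraries it fell by 2.07 ± 0.14 (adjusted p = 1.84e-05); with all libraries the value was 0.18 ± 0.78 (adjusted p = 0.889). With overexpression PTGS2 had 239, 191 and 206 FPKM, against 329, 194 and 216, which overlapped.

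TNFAIP2 had 59.3, 45.4 and 45.8 FPKM with overexpression, against 121, 141 and 121 in its controls, and BIRC3, an inhibitor of apoptosis, had 39.8, 28.2 and 28.6 FPKM, against 84.4, 60.9 and 80.5. Neither pair of groups overlapped, and both missed the threshold with all libraries (-1.39 ± 0.49 and -1.25 ± 0.45, adjusted p = 0.0695 and 0.073 by edgeR). Without both libraries they fell by 1.34 ± 0.21 and 1.14 ± 0.25 (adjusted p = 0.0016 and 0.00698). Of the TNFAIP2 counts, 62.1% to 77.8% lay in assembled transcripts. With those added the TNFAIP2 overexpression value over all libraries was -0.87 ± 0.42 (adjusted p = 0.15 by edgeR).
ICAM1, an adhesion receptor for leukocytes, had 0.38, 11.3 and 0.60 FPKM in the knockdown, against 1.77, 1.17 and 1.34 in its controls. Its log2 fold change there was 1.60 ± 0.94 with all libraries and -1.45 ± 0.28 without both (adjusted p = 0.237 and 0.00286), so the sign turned with 1 library. In the overexpression arm, 13 of the 32 tested members lay below their controls without overlap, against 19.5% of all genes, and 3 lay above, against 22.0%. In the knockdown 3 lay above, against 17.6% of all genes, and 3 below, against 22.9%.

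**Figure D5:**
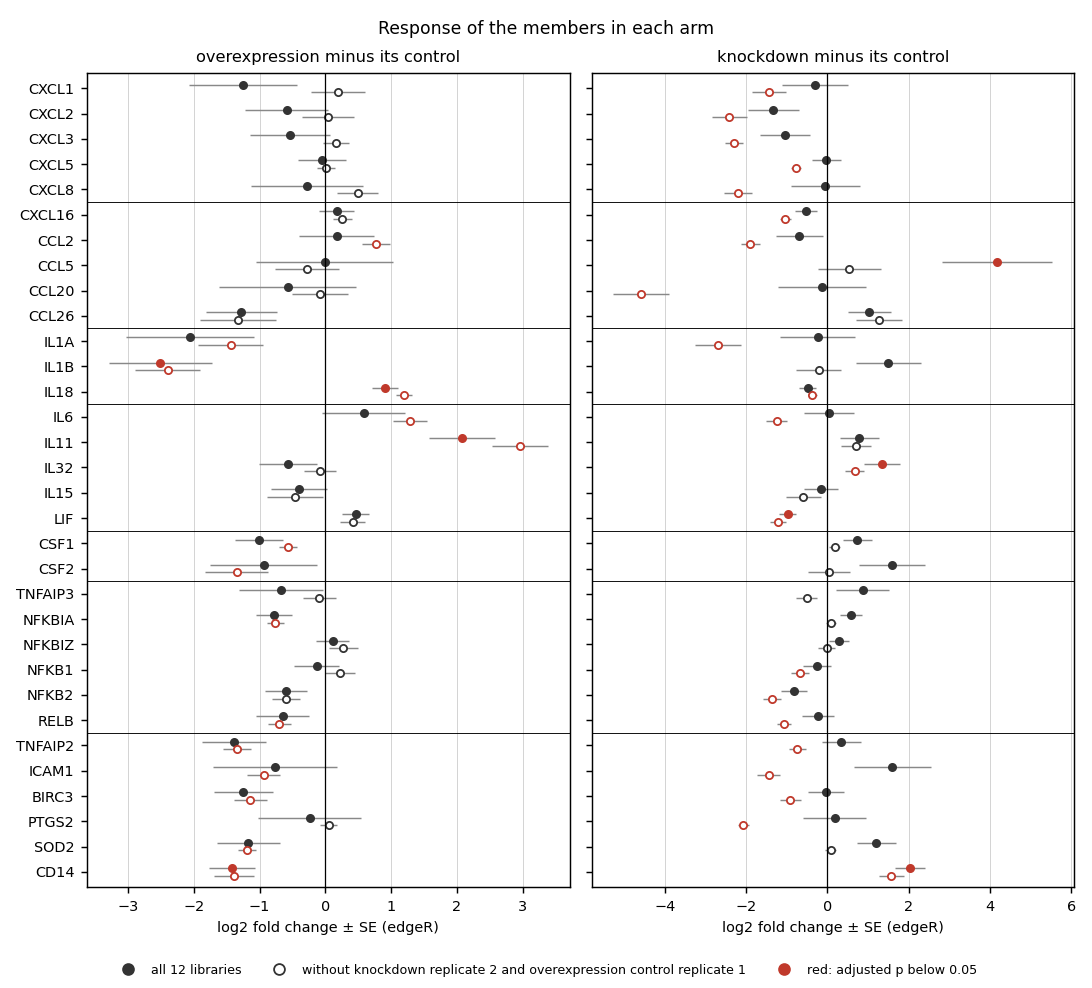
Log2 fold changes with SE for the 32 tested members (rows, grouped by role) with overexpression (left) and in the knockdown (right); filled points use all 12 libraries, open points leave out knockdown replicate 2 and overexpression control replicate 1, and red marks an adjusted p below 0.05. In the knockdown most open points lie to the left of the filled ones, with PTGS2 at -2.07 against 0.18.

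The responses of the arms differed for 9 members when the difference itself was tested (log2 response to overexpression minus log2 response to knockdown), against 25.6% of all genes (13.1% positive, 12.6% negative). IL18 (1.40 ± 0.28, adjusted p = 0.00499) and LIF (1.44 ± 0.29, adjusted p = 0.00551 by edgeR) responded more positively to overexpression. CD14 (-3.46 ± 0.51), IL1B (-4.01 ± 1.10), NFKBIA (-1.35 ± 0.37), SOD2 (-2.38 ± 0.68), CSF1 (-1.74 ± 0.51), CCL26 (-2.32 ± 0.75) and IL32 (-1.91 ± 0.63) responded more positively to knockdown. Without both libraries 18 members differed, against 38.5% of all genes (20.0% positive, 18.5% negative). IL32 was no longer among them, and CCL2, CCL20, CXCL16, CXCL2, CXCL3, CXCL5, CXCL8, IL11, IL6 and PTGS2 joined with positive values from 0.79 ± 0.18 for CXCL5 to 4.49 ± 0.83 for CCL20.
Without both libraries, 9 of 32 members were called in both arms (28.1%), against 16.0% of all genes tested. CCL2, IL18 and IL6 were higher with overexpression and lower in the knockdown (9.38% of members, 4.7% of all genes), and CD14 the other way round (3.12%, against 3.91%). BIRC3, ICAM1, IL1A, RELB and TNFAIP2 were lower in both arms (15.6%, against 3.33%). Knockdown replicate 2, left out here, was the highest of its group for 93.8% of members, against 42.1% of all genes. Its removal by itself lowers most members in the knockdown, so these shares are a description. With all libraries 0 members were lower in both arms, against 0.663% of all genes.

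The control groups themselves differed in these genes and in NR0B1. The targeted gene was higher in overexpression controls by 1.40 ± 0.39 (2.63-fold, adjusted p = 0.0189 by edgeR), although the FPKM ranges overlapped. Overexpression controls were higher than knockdown controls for 9 members and lower for 0 by edgeR, against 33.4% of all genes called (17.2% higher, 16.1% lower). DESeq2 also called 0 lower, and 0 members were lower at an unadjusted p below 0.05 by edgeR. With assembled transcripts added, edgeR called LIF lower (-0.57 ± 0.19, adjusted p = 0.0349) and IL15 higher (adjusted p = 0.0173), and TNFAIP2 no longer passed (adjusted p = 0.0507). Without overlap, 20 of the 32 members lay above, against 21.9% of all genes, and 3 below, against 30.7%. CXCL5 had 568.5, 549.46 and 500.99 FPKM in overexpression controls, against 139, 132 and 158 in knockdown controls (1.99 ± 0.37, adjusted p = 0.00289 by edgeR). SOD2 had 426, 282 and 298 FPKM, against 55.9, 54.7 and 67.2 (2.33 ± 0.50, adjusted p = 0.0054), and CD14 was higher by 2.85 ± 0.37 (adjusted p = 0.000552). The others were CCL5, IL1B, CSF1, TNFAIP2, NFKBIA and PTGS2. Of 26 interferon response genes, 22 were also higher in overexpression controls (84.6%, against 33.4% of all genes called), with a median log2 fold change of 3.23. The part of the interferon genes in these values was not tested. Without both libraries 14 members were higher and 4 lower, against 47.5% of all genes (23.9% higher, 23.6% lower).

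Genes around the pathway were called at shares that differed between lists. Of 30 NF-kB signalling components, 5 rose and 3 fell with overexpression (26.7%, against 18.1% of all genes), and 3 rose and 4 fell in the knockdown (23.3%, against 23.9%). MAP3K14, the kinase NIK of the non-canonical branch, had 30.7, 25.6 and 23.9 FPKM with overexpression, against 6.98, 8.63 and 9.08 in controls (1.75 ± 0.38, adjusted p = 0.0125 by edgeR). RELA, the main activating subunit, had 34.7, 38.6 and 35.1 FPKM in the knockdown, against 62.1, 58.6 and 54.6 (-0.58 ± 0.13, adjusted p = 0.00846). Without both libraries 13 of the 30 components fell and 2 rose in the knockdown, where 18.7% of all genes fell and 19.0% rose. With overexpression 9 rose and 4 fell in that setting (43.3%, against 37.5% of all genes).
Of 23 tested cytokine and innate receptors, 1 rose and 1 fell with overexpression (8.7%, against 18.1% of all genes): IL1RAP, the shared chain of the IL-1 receptor, rose by 1.53 ± 0.12 (adjusted p = 7.82e-05) and TNFRSF1A, the main TNF receptor, fell by 0.86 ± 0.17 (adjusted p = 0.00862). In the knockdown 3 rose and no further receptor was called by edgeR (13.0%, against 23.9%). IL11RA, the receptor chain for IL11, had 1.06, 1.45 and 0.93 FPKM there, against 0.10, 0.34 and 0.17 (2.51 ± 0.57, adjusted p = 0.00971).

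Of 12 AP-1 and early regulators, 5 rose and 2 fell with overexpression and 3 rose and 4 fell in the knockdown (58.3% in each arm, against 18.1% and 23.9% of all genes). Without both libraries 8 rose and 3 fell with overexpression (91.7%, against 37.5%), and 3 rose and 6 fell in the knockdown (75.0%, against 37.7%). JUN had 62.0, 67.9 and 64.1 FPKM with overexpression, against 14.7, 7.59 and 10.9 in controls, and rose by 2.52 ± 0.22 (adjusted p = 0.000212 by edgeR). It had 25.1, 23.8 and 32.0 FPKM in the knockdown, against 66.0, 59.1 and 68.8, and fell by 1.23 ± 0.21 (adjusted p = 0.00268), with knockdown replicate 2 no higher than the others. ATF3, a stress-induced repressor, had 5.46, 13.8 and 3.50 FPKM in the knockdown, against 59.1, 50.1 and 59.6 (-2.84 ± 0.50, adjusted p = 0.00281).
Of 14 genes of JAK-STAT3 feedback, through which the IL-6 family acts, 1 rose and 2 fell with overexpression (21.4%, against 18.1% of all genes), and 2 rose and 2 fell in the knockdown (28.6%, against 23.9%). SOCS3, a feedback inhibitor of gp130 signalling, averaged 10.9 ± 0.773 FPKM in the knockdown and 21.8 ± 1.32 FPKM in its controls (SD, n = 3 each; log2 fold change -0.97 ± 0.18, adjusted p = 0.00382 by edgeR). SOCS1 rose in both arms, by 2.34 ± 0.42 with overexpression and 2.36 ± 0.45 in the knockdown, where no library exceeded 1.14 FPKM. It had 2.15, 1.79 and 1.61 FPKM with overexpression, against 0.41, 0.41 and 0.17 in its controls. SOCS1 thus passed the filter through the group where it was high, and its place in these counts is a description. Of 18 further NF-kB targets, 2 rose and 1 fell with overexpression (16.7%, against 18.1%) and 5 rose and 2 fell in the knockdown (38.9%, against 23.9%). GADD45B, among those that fell, had 32.0, 8.21 and 15.1 FPKM in the knockdown, against 94.8, 82.7 and 100 in its controls (-2.32 ± 0.38, adjusted p = 0.00198). C3, among those that rose, had 62.1, 154 and 64.5 FPKM, against 28.3, 25.4 and 26.3 (1.84 ± 0.42, adjusted p = 0.0108 by edgeR).

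The 12 tested members whose promoter window holds a kappaB match and the 12 whose window holds none were set side by side, as a description. With all libraries 1 member of each class rose and no other was called in the knockdown; with overexpression no member with a match was called by edgeR, and of those without one 1 rose and 2 fell. Without both libraries, where 37.7% of all genes were called in the knockdown and 37.5% with overexpression, 8 members with a match fell and 1 rose in the knockdown, and of those without a match 6 fell and 1 rose. With overexpression 2 with a match fell and 1 rose, and of those without a match 7 fell and 1 rose. The members with a match were CXCL1, CXCL2, CXCL3, CXCL5, CXCL8, ICAM1, IL32, IL6, NFKB1, NFKBIA, NFKBIZ and TNFAIP3.

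The 9 members below the filter were CX3CL1, CXCL10, CXCL11, IL23A, CSF3, IL33, TNF, IL1RN and CXCL6. CX3CL1 had the highest single value, 2.88 FPKM in knockdown replicate 2, with 1.05 FPKM in overexpression control replicate 1 and 0.69 or less in each of the other libraries. TNF, a main inducer of NF-kB, was at most 0.30 FPKM in any library, and CXCL6 at most 0.21.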

How the data were processed

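Libraries were made from 3 µg of RNA per sample, per the labels. The authors deposited expected counts and FPKM values per transcript, per the file headers. The submitters' processing notes list RSEM, StringTie 1.3.1, HISAT2 2.0.5 and Bowtie2 2.2.8, and fastp. The same notes name mouse builds, whereas the identifiers are human, so coordinates come from GENCODE 29. Whether counting used strand is not given in the sources used here.

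Of 96247 rows, the 82270 with Ensembl identifiers were summed per symbol and rounded; 13977 assembled rows (13.3% to 15.4% of counts) entered an alternative only. edgeR 4.0.16 (quasi-likelihood, robust, TMM scaling; R 4.3.3) fitted 1 mean per group over all 12 libraries with no covariate, leaving 8 residual degrees of freedom. p-values were adjusted by Benjamini-Hochberg over 11908 genes, and genes were called below 0.05. The approximate SE was the size of a log2 fold change over the square root of its F. Both arms were fitted together, so leaving out a library of 1 arm also changes the spread used for the other. Exact permutation tests of 3 against 3 libraries cannot go below p = 0.1 and were not used for calls. The fit was first tested on simulated data.

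The members and gene lists were chosen with earlier results of these data known. All members may be named; of each further list, at most 4 called genes per arm with the smallest adjusted p were eligible, and NR0B1. Alternatives were DESeq2 1.42.0, DESeq2 size factors in edgeR, limma 3.58.1 on log2(FPKM + 1) and log2(FPKM + 0.1), other filters, a replicate block, each arm alone, assembled rows added, and libraries left out.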

Additional observations from a re-analysis of the deposited data

Results flagged for a closer look

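For 9 members the response to overexpression differed from the response to knockdown when that difference was tested by edgeR (adjusted p below 0.05 over all genes). On the log2 scale the differences, overexpression response minus knockdown response, were -3.46 for CD14, 1.40 for IL18, 1.44 for LIF, -4.01 for IL1B, -1.35 for NFKBIA, -2.38 for SOD2, -1.74 for CSF1, -2.32 for CCL26 and -1.91 for IL32. CD14, IL18 and LIF stayed called when any 1 library was left out. The others lost the call without at least 3 of the 12 libraries, IL32 without 10 and CCL26 without 9. With assembled rows added the SOD2 difference no longer passed (adjusted p = 0.0615 by edgeR), and the CSF1 difference was -0.96 (adjusted p = 0.013).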

How the results depend on the processing

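Under 22 alternatives (10 besides leaving out a single library), the counts of members called moved most with the libraries included. With overexpression 4 members were called with all libraries, 8 by DESeq2, 15 without both libraries that stand apart, 12 with each arm fitted alone, and 0 to 12 with a single library left out (0 by edgeR without control replicate 3, where 8 had an unadjusted p below 0.05 and no other tool was run; 12 without knockdown replicate 2). In the knockdown 4 were called, against 2 with no filter on low values, 2 with the replicate block, 21 without both, 2 with each arm alone, and 2 to 16 with a single library left out (16 without knockdown replicate 2). The difference of the arms had 9 calls, 18 without both and 3 to 15 with a single library left out. Overexpression controls against knockdown controls had 9, 18 without both and 5 to 16. Of all genes, overexpression called 18.1% with all libraries, 27.7% without knockdown replicate 2 and 37.5% without both. The knockdown called 23.9%, 28.8% and 37.7% in the same settings. The difference of the arms called 25.6% with all and 38.5% without both, and the controls 33.4% and 47.5%. Shares over all genes are not given here for most other settings, so their counts describe the members only. The cause of these shifts was not tested, beyond fewer libraries in the fit.

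Same-numbered libraries did not deviate together throughout. Their correlations were 0.25, 0.181 and 0.000753 in the overexpression arm and 0.0333, -0.0804 and -0.0784 in the knockdown arm. Overexpression replicate 1 did go with control replicate 1, at 0.25 against -0.202 and -0.179 with control replicates 2 and 3. Overexpression replicate 2 had -0.243 with control replicate 1, and 0.181 and 0.187 with control replicates 2 and 3. Not every library correlated best with its own number. The block gave 3, 2 and 7 calls for overexpression, knockdown and the difference of the arms.

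Signs turned with overexpression when both libraries were left out for CXCL1 (0.19), CXCL2 (0.04), CXCL3 (0.16), CXCL5 (0.01), CXCL8 (0.49), NFKB1 (0.22) and PTGS2 (0.05), and for CCL5 with assembled rows (0.04). With a single library left out these log2 values ranged from -1.67 to 0.19 (CXCL1), -0.85 to 0.04 (CXCL2), -0.82 to 0.16 (CXCL3), -0.10 to 0.01 (CXCL5), -0.60 to 0.49 (CXCL8), -0.07 to 0.77 (CCL2), -0.58 to 0.32 (CCL5), -0.02 to 0.27 (NFKBIZ), -0.33 to 0.22 (NFKB1) and -0.40 to 0.05 (PTGS2). In the knockdown, signs turned without both libraries for IL1B (-0.22), IL6 (-1.25), TNFAIP2 (-0.74), TNFAIP3 (-0.51), NFKBIZ (-0.02), ICAM1 (-1.45) and PTGS2 (-2.07); with the block for IL6 (-0.46), TNFAIP2 (-0.10), ICAM1 (-0.09) and PTGS2 (-0.98); with limma for IL6 (-0.09 and -0.14) and PTGS2 (-0.85 and -0.90); and with no filter for IL6 (-0.01). Single libraries left out gave ranges of -1.45 to 0.19 (CXCL1), -0.78 to 0.30 (CXCL5), -2.21 to 0.45 (CXCL8), -4.58 to 0.44 (CCL20), -2.71 to 0.32 (IL1A), -0.22 to 2.02 (IL1B), -1.26 to 0.40 (IL6), -0.60 to 0.21 (IL15), -0.75 to 0.76 (TNFAIP2), -0.52 to 1.28 (TNFAIP3), -0.02 to 0.56 (NFKBIZ), -0.68 to 0.04 (NFKB1), -1.07 to 0.11 (RELB), -1.45 to 2.14 (ICAM1), -0.93 to 0.34 (BIRC3) and -2.07 to 0.67 (PTGS2).

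Depth limits the low members: 3 counts stood at 0.154 to 0.234 CPM, and such floors cover counting error only.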

Other observations

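Interferon genes themselves were measured at low levels and were looked up after the values of their response genes had been seen. IFNB1, interferon beta, had 3.84, 1.49 and 2.22 FPKM with overexpression and 0.81, 0.47 and 0.36 FPKM in its controls. In the knockdown it had 0.00, 2.49 and 0.00 FPKM, against 0.00, 0.00 and 0.10 in controls. IFNL1, an interferon lambda, had 4.46, 1.47 and 2.02 FPKM with overexpression, against 2.33, 1.07 and 0.49 in controls, and 0.05, 8.0 and 0.00 FPKM in the knockdown, against 0.00, 0.00 and 0.10. IFNG was listed at 0 in all libraries. Knockdown replicate 2 was the knockdown-arm library with the highest value of IFNB1 and IFNL1, as it was for CCL5, CCL20 and ICAM1.

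Among Ensembl transcripts only, the one with the largest share of a member's FPKM was the same in all 12 libraries for several members. These included IL18, LIF, NFKBIA and BIRC3, with shares of 83.6% to 93.6% for IL18 and 92.6% to 97.0% for NFKBIA. Assembled transcripts, left out of these shares, hold 53.2% to 69.1% of the LIF counts. IL32 was spread over 30 Ensembl transcripts, and its leading one held 14.8% to 45.2%. These shares are the authors' transcript estimates and carry no error here.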
